A study of Mus musculus with 6 samples.

Results

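Heat shock proteins and their partner chaperones were examined in CD4 T cells of the mouse colon. The 73 members were all genes of the deposited count table whose symbols belong to the HSP70, HSP110, HSP90, HSP60 and HSP10 families, to the J-domain families Dnaja, Dnajb and Dnajc, to the CCT subunits Cct2 to Cct8 with Cct6a and Cct6b, or to Bag1 to Bag6. The rule reads gene symbols and no measured value, over 15473 genes. The set held 10 HSP70 genes, 3 HSP110 genes, 3 HSP90 genes, 3 genes of the HSP60 and HSP10 pair, 4 Dnaja, 11 Dnajb and 25 Dnajc genes, 8 CCT genes and 6 BAG genes. Together they took 1.47% of all UMIs (unique molecules counted per gene and cell), and Hspa8 with Hsp90ab1 took 42.4% of that, as UMIs and not per length.

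The cells were sorted from the colonic lamina propria as tdTomato+GFP+ and as tdTomato-GFP-, and both gates came from mice that carried Foxp3{delta}EGFPiCre/WT and R26lsl-tdTomato/wt. The labels name no treatment and no age. By its name the first allele puts EGFP and Cre into the Foxp3 locus and the second is a Rosa26 tdTomato reporter that Cre switches on. The delta in the first name is left unread here, and the gates are not taken as cells with and without Foxp3 protein. Each gate held 3 biological replicates that were marked with antibody hashtags and run together on 1 droplet lane, so that gate and lane cannot be told apart. The tissue had been digested in warm, shaking DTT/EDTA buffer and then in collagenase and DNase before sorting, a step that both gates share.

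Chaperones hold unfolded proteins and let them fold. HSP70 proteins bind exposed stretches under the control of ATP, J-domain proteins bring them their clients and start the ATP cycle, and HSP110 and BAG proteins release the nucleotide again. HSP90 finishes signalling proteins such as kinases and hormone receptors, HSP60 with HSP10 forms a folding chamber in mitochondria, and the CCT ring folds actin and tubulin in the cytosol. Some members are always present (Hspa8, Hsp90ab1, CCT), some are switched on by heat shock factor 1 when proteins unfold (Hspa1a, Hspa1b, Dnajb1, Hsph1), and others serve the endoplasmic reticulum (Hspa5, Hsp90b1, Dnajb11, Dnajc3). Heat shock factor 1 is known to bind repeats of GAA in alternating directions, called heat shock elements.

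Promoter stretches are shown for 8 members because the genes that stood highest in 1 cluster of cells, described next, often carried such repeats and because Dnajb6, which carried the 3-unit form, was lower there. RefSeq promoters (build GRCm38.p6, the 250 bases before each start site) were available for 59 of the 73 members. Dnajc5, Dnajc11, Dnajc2, Dnajc30, Bag4, Hspa8, Dnajc12, Cct4, Hsp90aa1, Hspa13, Hsp90ab1, Hspa9 and Dnajc18 were among those not matched. The search was for 2 neighbouring units, GAANNTTC or TTCNNGAA, and for 3 units, in which GAANNTTC is followed by NNGAA or TTCNNGAA by NNTTC. Each 2-unit pattern is its own reverse complement and the 3-unit patterns are each other's, so both strands were covered, and every 3-unit match holds 2-unit matches. All stretches are written 5′ to 3′ on the gene's strand, with the matched bases in capitals. They are counted from the RefSeq start sites, and those of Hspd1 and Hspe1, Hsph1, Dnaja1 and Dnajb6 overlap an exon that GENCODE M21 annotates. Hspd1 (minus strand) and Hspe1 (plus strand) lie head to head, and the first pair of lines is 1 stretch, chr1:55088053-55088082, read from each side; its capitals begin 144 bases before the Hspd1 start and 89 bases before the Hspe1 start.
Hspd1: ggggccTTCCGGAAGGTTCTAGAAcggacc
Hspe1: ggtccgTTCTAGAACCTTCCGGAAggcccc
Hspa1a: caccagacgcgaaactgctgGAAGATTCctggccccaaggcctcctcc
Hspa1b: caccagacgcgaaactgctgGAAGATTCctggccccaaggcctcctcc
Hsph1: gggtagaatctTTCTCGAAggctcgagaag
Dnaja1: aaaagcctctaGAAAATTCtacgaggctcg
Dnaja4: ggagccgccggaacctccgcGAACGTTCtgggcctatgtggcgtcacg
Dnajb6: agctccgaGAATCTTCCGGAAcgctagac

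The Hspa1a stretch lies at chr17:34972233-34972280 and the Hspa1b stretch at chr17:34959315-34959362, both on the minus strand, with the match 104 to 97 bases before the start site in each. The other stretches lie at chr5:149636351-149636380 (Hsph1, minus strand), chr4:40722333-40722362 (Dnaja1, plus strand), chr9:54699449-54699496 (Dnaja4, plus strand) and chr5:29735844-29735872 (Dnajb6, plus strand). The 3-unit form was found before 3 of the 59 members (Hspd1, Hspe1 and Dnajb6), against 0.514% of 27025 genes with a RefSeq promoter. The 2-unit form was found before 13 of the 59 members, or 22.0%, against 14.5% of those genes. These are matches of letters and say nothing of whether a factor was bound.

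Hspa1a and Hspa1b, the stress-inducible HSP70 genes, lie 9951 bases apart on chromosome 17, and their coding sequences were 99.4% identical, so that the counting could have moved reads between them. Their values are given as a sum in some places and gene by gene in others, and the tests and counts of members treat them as separate genes. Where either gene passed a test and the other did not, this is not read as a difference between Hspa1a and Hspa1b. In addition, 19 members overlapped another annotated gene on their own strand. Hspd1 and Hspe1 overlap on opposite strands.

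The replicates held 5159, 3114 and 1836 cells in the tdTomato-GFP- gate and 1747, 4610 and 2408 cells in the tdTomato+GFP+ gate, with 7424984 to 23289046 UMIs per replicate and a median of 3501.5 to 3905 UMIs per cell. T cell genes were present in each of the 6 replicates, with Cd3e at 1060 to 1574 CPM and Cd4 at 330.1 to 489 CPM. CPM is the UMI count scaled to 1000000 UMIs of the pooled cells, hashtag features left out. Other cell types were seen too: 8 B and plasma cell markers summed to 368 to 2180 CPM and 8 myeloid markers to 567 to 789 CPM. The highest cluster mean of the B and plasma markers was 270 CPM, in cluster 7. The part of such cells in the values over all cells was not tested. The lanes shared 106 cell barcodes among the cells used. The authors' phenograph clusters, numbered 0 to 15, are used by number.

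Cluster 8 held the highest level of stress-inducible chaperones. Hspa1a and Hspa1b together stood at 5954 CPM there, against 1524 CPM in cluster 13, the next cluster in order, which rests on 3 replicates. The members together took 25895 CPM there (mean over 6 replicates, range 19582 to 29765). In cluster 0, the largest cluster, they took 13029 CPM (10758 to 14580). The 8 listed Th2 genes, among them Gata3, Il5 and Il13, summed to 2169 CPM in cluster 0 and 2095 CPM in cluster 8. They were higher in clusters 5 (8331 CPM), 13 (2280 CPM) and 14 (2300 CPM), so the list does not single out cluster 0. The clusters had been formed by the authors from the expression of these cells, chaperones included, so the values are a description and no test was made. Of 53 members with at least 20 CPM in either cluster, 12 were higher in cluster 8 in all 6 replicates, while 4.96% of 6253 genes with that level were. Another 2 members, Dnajc19 and Dnajb6, were lower in all 6, while 7.44% of genes were. The median log2 ratio of cluster 8 over cluster 0 was 0.08 over the 53 members and 0.00 over the genes.

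The inducible HSP70 pair showed the highest ratios. Hspa1a stood at 2016, 2610 and 3051 CPM in cluster 8 of tdTomato-GFP- replicates 1, 2 and 3 and at 2149, 2547 and 3060 CPM in tdTomato+GFP+, against 287, 478 and 453 CPM and 256, 284 and 383 CPM in cluster 0. Hspa1b stood at 2429, 3535 and 4056 CPM and 1936, 4021 and 4313 CPM in cluster 8, against 385, 623 and 676 CPM and 213, 411 and 675 CPM in cluster 0. For both genes the lowest cluster 8 value was above its highest cluster 0 value, and the means differed 7.20-fold for Hspa1a (log2 ratio 2.87 ± 0.26, SD, n = 6) and 6.80-fold for Hspa1b (2.82 ± 0.33). Hspa8, the constitutive HSP70 of the cytosol, ranged from 3577 to 7181 CPM in cluster 8 and from 2300 to 3789 CPM in cluster 0, higher in all 6 replicates but with overlapping ranges, and its means differed 1.83-fold. Hspa5, the HSP70 of the endoplasmic reticulum also known as BiP, was at 867, 659 and 704 CPM and 1108, 686 and 593 CPM in cluster 8, with a mean only 1.19-fold above that of cluster 0, and the mitochondrial Hspa9 had a fold of 0.976. The HSP70 genes together differed 2.62-fold, and by 2.38-fold to 3.03-fold within replicates.

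The J-domain partner Dnajb1, which activates HSP70 in the cytosol and nucleus, followed the pair. Its level was 877, 1468 and 1596 CPM and 908, 1382 and 1352 CPM in cluster 8, against 203, 271 and 324 CPM and 206, 237 and 338 CPM in cluster 0. The groups did not overlap, with a 4.81-fold difference of means and a log2 ratio of 2.26 ± 0.21 (SD, n = 6). Dnaja1, another cytosolic partner, had means of 1256 CPM in cluster 8 and 592 CPM in cluster 0, a 2.12-fold difference with a log2 ratio of 1.07 ± 0.22. Dnaja4 had means of 73.0 and 30.5 CPM, a log2 ratio of 1.27 ± 0.23. In contrast, 1 of the 16 counted Dnajc genes was higher in all 6 replicates (Dnajc1, 100.2 against 83.8 CPM), and the Dnajc sum was 1183 CPM in cluster 8 and 1192 CPM in cluster 0. Dnajb6, a J-domain protein that keeps proteins from aggregating, had means of 131 CPM in cluster 8 and 175 CPM in cluster 0 (log2 ratio -0.44 ± 0.28) although its promoter holds the 3-unit repeat shown above.

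Among the HSP90 genes, the inducible cytosolic Hsp90aa1 stood at 1235, 1516 and 1648 CPM and 1548, 1794 and 1580 CPM in cluster 8, against 443, 527 and 620 CPM and 264, 421 and 499 CPM in cluster 0. These groups were 3.36-fold apart with no overlap (log2 ratio 1.79 ± 0.45, SD, n = 6). The constitutive Hsp90ab1 differed 1.67-fold (3853 against 2304 CPM), and Hsp90b1, the form of the endoplasmic reticulum, 1.20-fold (514 against 429.9 CPM). Hsph1, an HSP110 exchange factor, had means of 347 and 146 CPM (log2 ratio 1.18 ± 0.45), and its lowest cluster 8 value, 133 CPM in tdTomato+GFP+ replicate 1, lay inside the cluster 0 range of 108 to 213 CPM. The mitochondrial folding chamber was higher in both its parts, with Hspe1 at 615 against 325 CPM (log2 ratio 0.89 ± 0.22) and Hspd1 at 341 against 185 CPM (0.88 ± 0.10).

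The CCT ring did not follow. No CCT gene was higher in all 6 replicates, the summed CCT level was 1116 CPM in cluster 8 and 1211 CPM in cluster 0, and Cct2 had means of 205 and 250 CPM (log2 ratio -0.31 ± 0.37). Of the BAG genes, which link HSP70 to other machinery, Bag3 was at 74.3 against 39.99 CPM and higher in 5 of 6 replicates. The lowest mean log2 ratio of a counted member was that of Dnajc30, -0.52 ± 0.52, higher in 2 of 6 replicates. Of the 12 members higher in all 6, 11 differed by over 1.5-fold (Hspa1a, Hspa1b, Hspa8, Hsph1, Hsp90aa1, Hsp90ab1, Hspd1, Hspe1, Dnaja1, Dnaja4 and Dnajb1), against 1.89% of genes, and Dnajc1 was the other one.

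Of the 9 members higher in all 6 replicates that had a RefSeq promoter, 7 held the 2-unit repeat (Hspd1, Hspe1, Hspa1a, Hspa1b, Hsph1, Dnaja1 and Dnaja4), and Dnajb1 and Dnajc1 did not hold it in that window. Of the 34 other counted members with a promoter, 4 held it (Dnajb6, Dnajc10, Cct2 and Cct5). The 250 bases before Hspa1a and Hspa1b are near copies and the Hspd1 and Hspe1 stretch is shared, so the 7 genes hold fewer separate stretches.

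**Figure D1:**
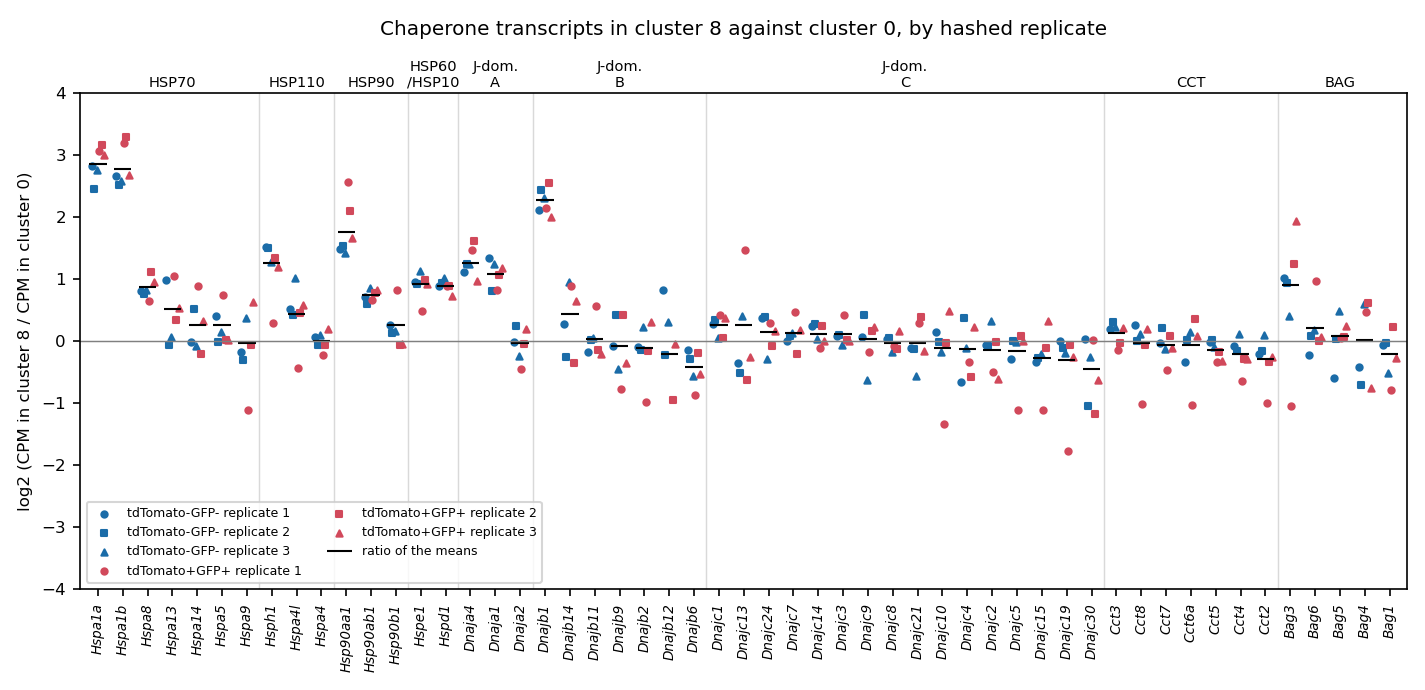
Log2 ratio of cluster 8 over cluster 0 for the 53 members with at least 20 CPM in either cluster, 1 point per replicate coloured by gate, with the ratio of the means as a bar, grouped by family. Hspa1a, Hspa1b, Dnajb1 and Hsp90aa1 lie highest, above 0 in all 6 replicates, and the CCT and Dnajc bars lie around 0; 1 point has no value because its count was 0.

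Other genes moved between the same clusters. Immediate early genes, which cells switch on within minutes of activation or tissue digestion, were higher in cluster 8 in all 6 replicates for 18 of 19 genes, and their sum was 48850 to 56654 CPM against 23149 to 25429 CPM in cluster 0. Fos had 6975 against 1264 CPM and Egr1 differed 7.87-fold. Among 23 counted heat shock factors and co-chaperones, 2 were higher in all 6: Chordc1 (1.80-fold) and Stip1 (1.28-fold), which bridges HSP70 and HSP90. Of 19 counted genes of the unfolded protein response of the endoplasmic reticulum, 2 were higher and 1 lower in all 6. Of 8 counted mitochondrial partners and proteases, the 1 higher in all 6 was Clpp, at 1.48-fold.

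Cluster 8 cells had a median of 3406 UMIs and 0.847% mitochondrial UMIs, against 4016 UMIs and 0.924% in cluster 0. Of 6 T cell genes, none was higher or lower in all 6 replicates. Cd3e stood at 1005 against 1044 CPM, Cd3g at 1113 against 1117 CPM and Cd4 at 319 CPM in both. Cd3d (654 against 746 CPM) and Lck (587 against 652 CPM) had lower means in cluster 8. In tdTomato+GFP+ replicate 1, cluster 8 had Cd3e at 707 CPM and Lck at 360 CPM, under the lowest cluster 0 values of 931 and 543 CPM. The 8 stromal markers summed to 0 to 3350 CPM in cluster 8 and to 0.49 to 692 CPM in cluster 0, the highest in tdTomato+GFP+ replicate 1, where cluster 8 holds 20 cells. They were also seen in cluster 8 of tdTomato-GFP- replicate 1, with 160 cells (Dcn 479 and Col3a1 205 CPM). In tdTomato-GFP- replicate 2 these 2 genes stood at 61.1 and 57.0 CPM. The epithelial markers summed to 0 to 1039 CPM in cluster 8, the highest in tdTomato+GFP+ replicate 3, and to 7.39 to 10.2 CPM in cluster 0. Without tdTomato+GFP+ replicate 1, 13 members differed by over 1.5-fold in the means, against 12 with it, and without tdTomato+GFP+ replicate 3, 12 did. In tdTomato-GFP- replicate 3, the stromal sum of cluster 8 was 0, the epithelial sum 31.5 CPM, and Hspa1a stood at 3051 CPM there, against 453 CPM in cluster 0. The part of the immediate early, stromal and epithelial genes in the chaperone difference was not tested. Of 8 Th2 genes, 3 were lower in cluster 8 in all 6 replicates, among them Il13 (205 against 493 CPM) and Il5, while Il4 (1.21-fold), Areg (1.28-fold) and Gata3 (1.07-fold) had higher means there. Il17a (2.37-fold), Foxp3 (1.99-fold), Ifng (1.87-fold) and Klf2 (3.01-fold) were higher in all 6, and the Th17 gene Il23r had a fold of 0.724. Each of the genes higher in all 6 was the only such gene of its list. That was 1 of 7 counted Th17 genes, 1 of 7 regulatory T cell genes and 1 of 6 Th1 genes. No gene of these lists was lower in all 6. Klf2 was 1 of 5 counted genes of naive or central memory cells. In that list 3 genes were lower in all 6, with folds of 0.319 (Ccr7), 0.630 (Tcf7) and 0.558 (S1pr1). Over all counted genes, 4.96% were higher and 7.44% lower in all 6.

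The same T cell clones were found in both clusters. Of 557 cluster 8 cells with both receptor chains, 307 (55.1%, 95% Wilson interval 51.0 to 59.2%) shared their receptor with a cell of another cluster in the same replicate, 186 of them (33.4%, 29.6 to 37.4%) with cluster 0. These intervals pool cells and cover counting error only: by replicate the share with any other cluster was 61.0, 54.5 and 30.5% in tdTomato-GFP- and 72.7, 65.0 and 68.1% in tdTomato+GFP+, and the share with cluster 0 ran from 17.1 to 63.6%. Cluster 0 also held the most cells with both chains, 1994. The share was 23.5% with cluster 4, which held 1313 such cells, and 22.4% with cluster 6, which held 1169. In tdTomato-GFP- replicate 1, cluster 4 was above cluster 0 (38.1 against 34.3%), as was cluster 1 in tdTomato+GFP+ replicate 3 (42.0 against 27.5%). Sharing was not particular to cluster 0. Over the 139 clonotypes present in clusters 8 and 0, 186 cells of cluster 8 were set against 406 cells of cluster 0. Hspa1a stood at 2491 against 354 CPM and Hspa1b at 3281 against 466 CPM, and Dnajb1 differed 6.45-fold, Hsp90aa1 3.21-fold, Hsph1 2.60-fold and Dnaja1 2.43-fold, each higher in cluster 8 in 6 of 6 replicates. Hspa5 differed 1.06-fold and was higher in 4 of 6, and Cct2 had a fold of 0.944. The ratio for Hspa1a was 7.04-fold within shared clones and 7.20-fold over the whole clusters.

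The difference was also present cell by cell at equal depth. After each cell was thinned to 2000 UMIs, cluster 8 cells held a median of 6, 9 and 11 Hspa1a and Hspa1b UMIs in tdTomato-GFP- and 2, 9 and 11 in tdTomato+GFP+, and the median was 0 in cluster 0 of every replicate. At least 1 such UMI was seen in 72.0 to 89.6% of thinned cluster 8 cells and in 21.6 to 42.1% of thinned cluster 0 cells, and before thinning in 75.0 to 91.1% and 25.5 to 50.4%. Thinning left out 1 to 20 cells per replicate in cluster 8 and 1 to 43 in cluster 0. Free RNA gives UMIs in cells that do not express a gene, and its share in cluster 0 was not tested.

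Cluster 8 did not hold most of the inducible HSP70 RNA. It made up 3.10, 8.12 and 10.5% of the cells of tdTomato-GFP- replicates 1, 2 and 3 and 1.14, 3.47 and 5.07% of those of tdTomato+GFP+. It held 16.8, 30.5 and 33.1% and 10.5, 17.98 and 21.3% of their Hspa1a and Hspa1b UMIs. Each share of UMIs was above the share of cells, and replicate 1 was the lowest in both gates for both. Without cluster 8 the summed Hspa1a and Hspa1b level was 582, 1089 and 1454 CPM and 356, 895 and 1300 CPM, so the order of the replicates was the same with cluster 8 and without it.

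Across the other clusters, members of different families peaked in different cells. Leaving out cluster 14, whose median was 1090 UMIs per cell, 60 members had a median level over the clusters of at least 10 CPM. Of these, 19 were highest in cluster 10, 11 in cluster 8, 9 in cluster 15, 6 in cluster 7 and 15 in the others. The same count was not made over all genes, so these numbers do not set chaperones apart from other genes. Cluster 15 held 164 cells and rests on 3 replicates. Cluster 10 carried cycling genes and had a median of 8615 UMIs per cell. All 7 CCT genes counted were highest there: Cct2 stood at 359 CPM, Cct5 at 317 CPM and Cct8 at 285 CPM, and the CCT sum was 1870 CPM (1657 to 2016 over replicates). Hspd1 stood at 424 CPM in cluster 10, above its 341 CPM in cluster 8, while Hspa1a and Hspa1b together were at 799 CPM there. Dnajc9, a J-domain protein that handles histones, was at 189 CPM in cluster 10.

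The chaperones of the endoplasmic reticulum peaked in several clusters. Hspa5, at 1286 CPM, and Hsp90b1, at 814 CPM, were highest in cluster 12, where 25 of 326 cells were tdTomato-GFP- and which rests on 3 replicates, against 770 and 514 CPM in cluster 8. Dnajc3 was highest in cluster 7 (229.9 CPM), Dnajb11 in cluster 10 (151 CPM, with 151 CPM in cluster 12) and Hspa13 in cluster 13 (36.3 CPM). Hspa1a and Hspa1b together were lowest in cluster 12, at 357 CPM. Hspa2, an HSP70 gene best known from sperm, was at 32.3 CPM in cluster 5 and 21.3 CPM in cluster 12, with a median of 11.6 CPM over clusters.

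**Figure D2:**
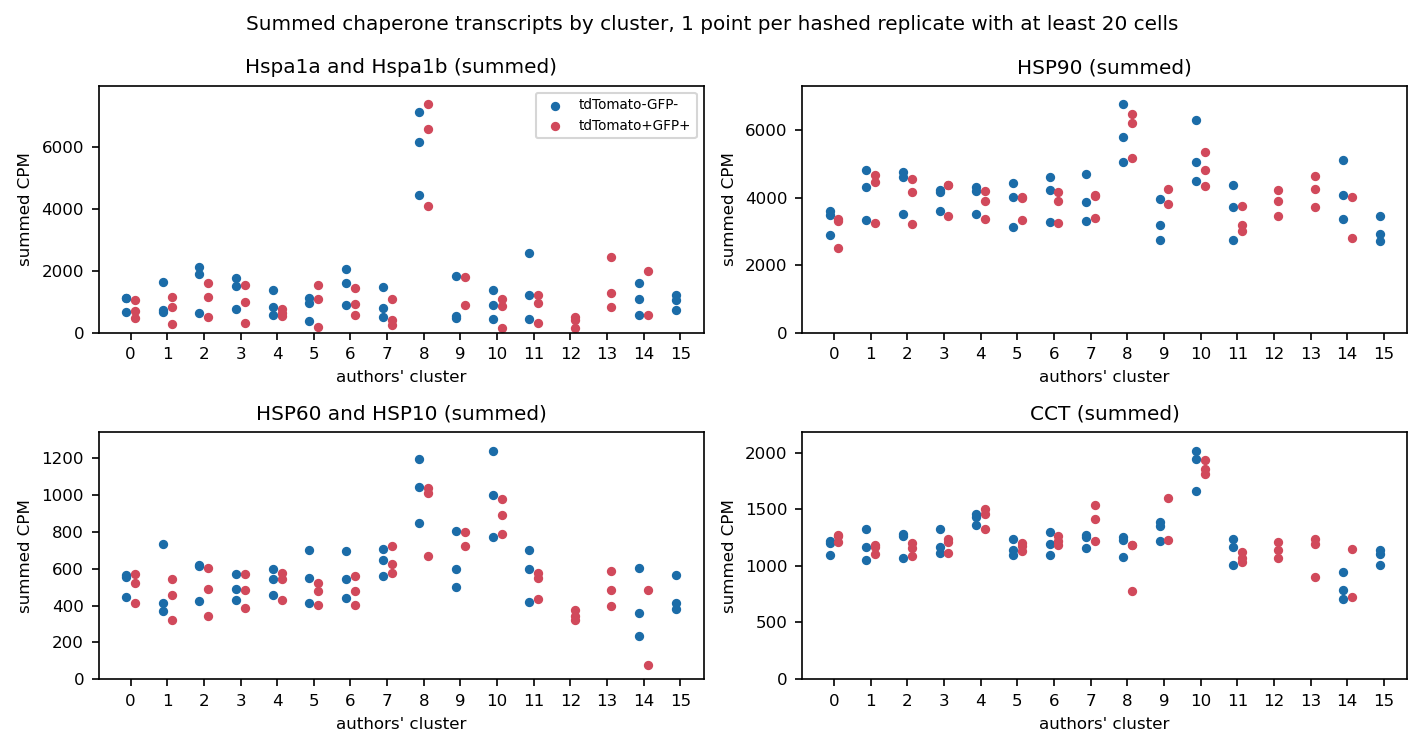
Summed levels by the authors' clusters in CPM, for Hspa1a with Hspa1b, the HSP90 genes, the HSP60 and HSP10 genes and the CCT genes, 1 point per replicate with at least 20 cells, coloured by gate. The Hspa1a and Hspa1b sum averages 5954 CPM in cluster 8, and the CCT sum is highest in cluster 10, at 1870 CPM.

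The replicates differed in the same genes in both gates. Over all cells, Hspa1b stood at 388, 843 and 1124 CPM in tdTomato-GFP- replicates 1, 2 and 3 and at 235, 641 and 940 CPM in tdTomato+GFP+. Hspa1a stood at 293, 611 and 851 CPM and at 159, 419 and 635 CPM, and Dnajb1 at 218, 354 and 460 CPM and at 154, 229 and 298 CPM. Replicate 1 was the lowest and replicate 3 the highest in both gates. After TMM scaling, which sets libraries to a common scale, the third over the first was 2.97-fold and 3.98-fold for Hspa1b, 2.17-fold and 1.93-fold for Dnajb1 and 2.37-fold and 2.501-fold for Hsph1. The constitutive Hspa8 had the same order, at 2765, 3803 and 4376 CPM and 2541, 3774 and 4490 CPM.

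In all, 17 of the 69 members tested had this order in both gates on the TMM scale, against 7.94% of 11933 genes, among them Hspa1a, Hspa1b, Hspa8, Hsph1, Hsp90aa1, Hsp90ab1, Hspd1, Hspe1, Dnaja1, Dnaja4, Dnajb1, Dnajb4, Dnajc14, Cct4, Cct6a and Cct7. The opposite order was seen in 4 members (Dnajc10, Dnajb13, Dnajc9 and Bag6), against 8.22% of genes. Hspa5 stood at 749, 741 and 740.5 CPM and at 971, 924 and 808 CPM, falling in both gates before TMM scaling, and after it the third over the first was 1.02-fold in tdTomato-GFP- and 0.827-fold in tdTomato+GFP+. Hspa9 had 0.994-fold and 0.937-fold. Of the listed partner genes, 8 of 25 heat shock factors and co-chaperones had the first order, such as Stip1 (116, 152 and 180 CPM, and 107, 145 and 168 CPM) and Chordc1 (73.7, 95.8 and 132 CPM, and 67.6, 86.3 and 117 CPM). None of 21 genes of the unfolded protein response did, and 5 of 19 immediate early genes did.

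The order was not that of cluster 8 alone. In 27 combinations of a cluster and a gate with at least 20 cells in each replicate, replicate 1 had the lowest summed Hspa1a and Hspa1b level in 27, and replicate 3 the highest in 25, the exceptions being cluster 3 of tdTomato-GFP- and cluster 11 of tdTomato+GFP+. The labels tie the replicate numbers to no date or animal, and what sets the replicates apart was not tested.

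**Figure D3:**
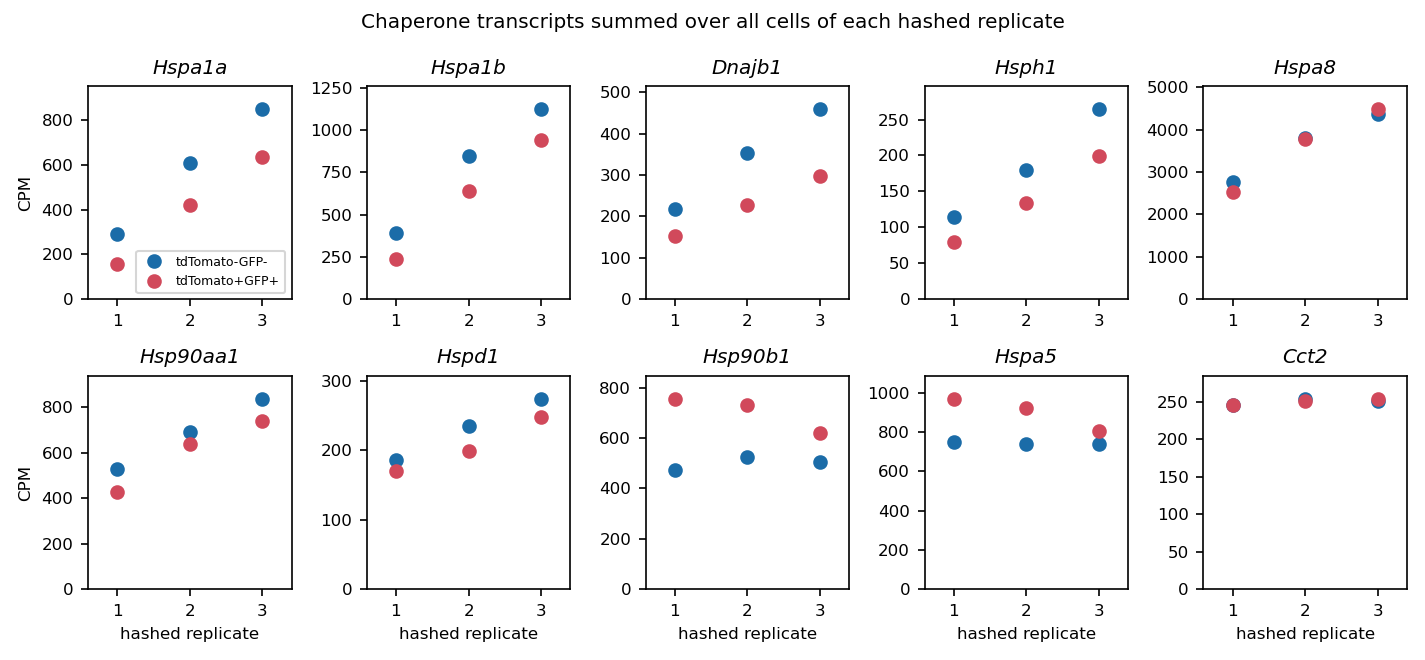
Levels of 10 members over all cells of each replicate in CPM (vertical axes, each from 0), 1 panel per gene and 1 point per replicate, coloured by gate. Hspa1a, Hspa1b, Dnajb1 and Hsph1 are lowest in replicate 1 and highest in replicate 3 of both gates, while Hspa5 is higher in tdTomato+GFP+.

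Between the gates over all cells, the endoplasmic reticulum chaperones Hsp90b1, Hspa5 and Dnajb11 were higher in tdTomato+GFP+ cells and Dnajc3 was lower. Of the J-domain genes, 4 rose and 4 fell. Of 69 members tested with edgeR's quasi-likelihood test (Benjamini-Hochberg adjusted p under 0.05 over all genes), 16 differed, 8 higher and 8 lower, against 26.4% of 11933 genes, so the members' share was near that of all genes (13% of genes were higher and 13.4% lower). The median log2 fold change (tdTomato+GFP+ over tdTomato-GFP-) was -0.02 over the members and 0.00 over all genes. Without tdTomato-GFP- replicate 1, 2 or 3 the count was 10, 6 or 10, against 2425 of 11914, 2093 of 11905 and 2410 of 12373 genes. Without tdTomato+GFP+ replicate 1, 2 or 3 it was 10, 7 or 13, against 2730 of 12362, 2005 of 11967 and 3003 of 12441 genes. When each cluster was given the same number of cells in both gates, 1 member differed, Dnajc15, against 2.47% of genes. Without the 216 cells that have no cluster, 17 members differed, against 3204 of 11842 genes.

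Hsp90b1, which folds integrins and Toll-like receptors, was at 473, 525 and 503 CPM in tdTomato-GFP- and at 756, 730 and 620 CPM in tdTomato+GFP+. The gates did not overlap, and the log2 fold change was 0.47 ± 0.08 (SE, n = 3 against 3, adjusted p = 0.00467, edgeR's quasi-likelihood test with Benjamini-Hochberg adjustment). Hspa5 was at 749, 741 and 740.5 CPM against 971, 924 and 808 CPM, a log2 fold change of 0.26 (adjusted p = 0.0223, edgeR), and that of its partner Dnajb11 was 0.30. Dnajc1, a J-domain protein of the endoplasmic reticulum membrane, was at 110, 98.7 and 97.5 CPM against 141, 135 and 140 CPM, a log2 fold change of 0.43 ± 0.06 (adjusted p = 0.000933, edgeR). The other members that rose were Hspa4l (0.37), Dnajc13 (0.31), Hspa13 (0.30) and Dnajc7 (0.27).

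Dnajc3, which restrains the kinases of the stress response in the endoplasmic reticulum, went the other way, from 170.4, 173.3 and 177.9 CPM to 129.2, 131.5 and 132.1 CPM. Its log2 fold change was -0.42 ± 0.05 (SE, adjusted p = 0.000604, edgeR's quasi-likelihood test), with very little spread between replicates. Dnajc12, a partner of aromatic amino acid hydroxylases, was low in both gates, at 5.54, 8.01 and 6.69 CPM against 2.29, 2.63 and 3.11 CPM (log2 fold change -1.33 ± 0.21, adjusted p = 0.00244, edgeR). The other members that fell were Dnajb6 (-0.31), Cct6a (-0.28), Dnajc15 (-0.24), the mitochondrial Hspa9 (-0.21), Hspa4 (-0.18) and Cct5 (-0.17).

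The inducible genes did not pass this test, since the replicates of each gate were far apart, but every pair of replicates with the same number gave a lower Hspa1a, Hspa1b, Dnajb1, Hsph1 and Hspe1 level in tdTomato+GFP+. The replicate numbers pair the samples, and with the number as a block 28 members differed, 11 higher and 17 lower, against 34.6% of genes (17.3% higher and 17.4% lower). Dnajb1 then had a log2 fold change of -0.60 ± 0.04 (adjusted p = 2.9e-05, edgeR with the replicate block, against 0.347 without it), Hsph1 of -0.47 ± 0.04 and Hspa1a of -0.63 ± 0.10 (adjusted p = 0.0197, against 0.644). Hspa1b, at -0.47 ± 0.10, had an adjusted p of 0.0524 with the block. Hspe1 (-0.36), Dnaja4 (-0.35), Dnajb9 (-0.23), Bag3 (-0.22), Hsp90aa1 (-0.21) and Hspd1 (-0.19) also fell with the block, and Dnajb13 (0.76), Dnajc9 (0.16) and Bag1 (0.14) rose. Without cluster 8, which was a smaller share of the tdTomato+GFP+ gate, 27 members differed with the block, against 35% of genes, and with equal cells per cluster and the block 14 did (2 higher and 12 lower, against 12.2% of genes, 4.9% higher and 7.31% lower).

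Hspa8, Dnaja1, Hsp90ab1, Cct2 and Cct8 passed over all cells in neither fit. With the block, Hspa8 was at -0.04 (95% interval -0.09 to 0.0014), Dnaja1 at -0.06 (-0.12 to 0.0024), Hsp90ab1 at -0.09 (-0.15 to -0.03, adjusted p = 0.0567, edgeR), Cct2 at -0.02 (-0.08 to 0.05) and Cct8 at 0.04 (-0.04 to 0.12). The 41 members that passed in neither fit had estimates without the block between -0.40 for Hspa1b and 0.25 for Hspa2.

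**Figure D4:**
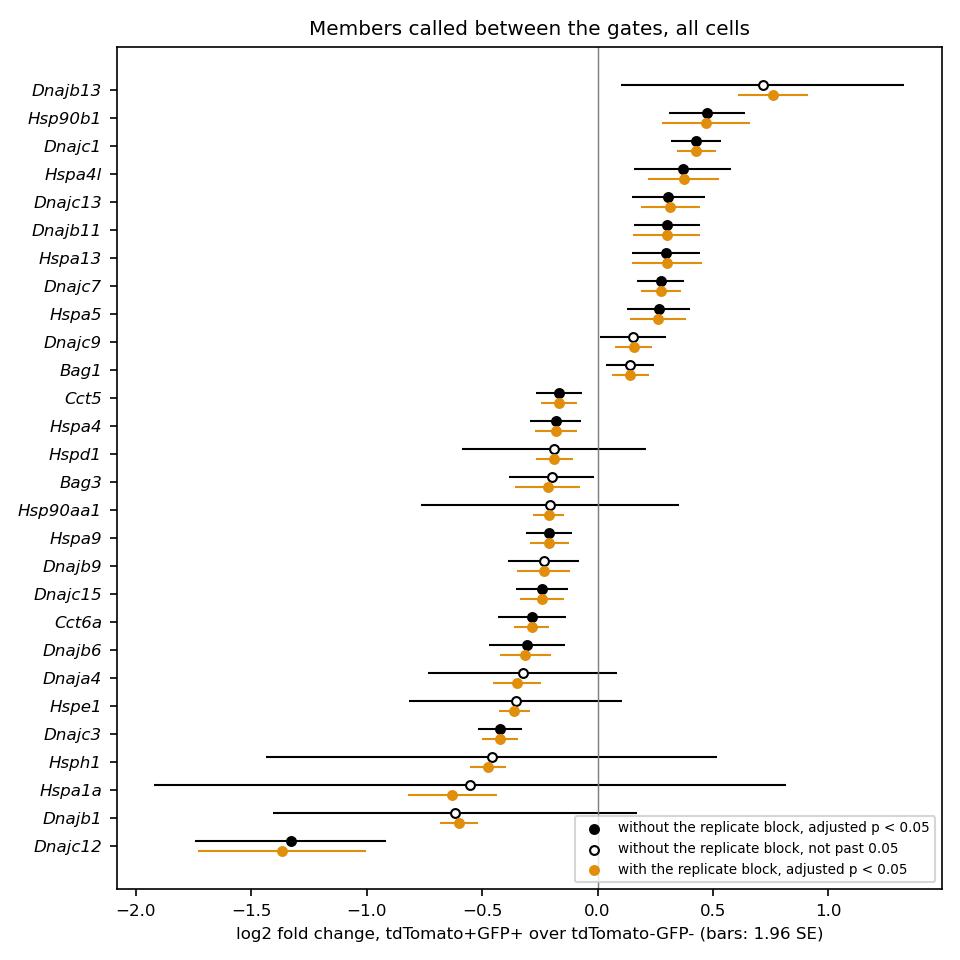
Log2 fold change of tdTomato+GFP+ over tdTomato-GFP- over all cells for the members past an adjusted p of 0.05 in either fit, with 95% intervals as bars, without the replicate block (black) and with it (orange), filled where past that threshold. Hsp90b1 and Dnajc1 lie to the right and Dnajc3 and Dnajc12 to the left in both fits, while the intervals of Hspa1a, Dnajb1 and Hsph1 are narrower with the block.

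In clusters 1, 2 and 3, which hold most tdTomato+GFP+ cells, Hsp90b1 and Dnajc1 were again higher and Dnajb6 and Dnajc3 lower. Of 66 members tested, 4 differed in edgeR's test, 2 higher and 2 lower, against 11.4% of 9966 genes (4.64% higher and 6.75% lower). Hsp90b1 rose from 608, 647 and 606 CPM to 762, 796 and 729 CPM (log2 fold change 0.25 ± 0.06, adjusted p = 0.00694, edgeR) and Dnajc1 rose by 0.26 ± 0.08 on that scale. Dnajb6 fell from 154, 159 and 185 CPM to 107, 122.98 and 130.4 CPM (-0.50 ± 0.09, adjusted p = 0.00157, edgeR) and Dnajc3 fell by 0.39. Without tdTomato-GFP- replicate 1 the count was 1, against 577 of 10498 genes. It was 2 without tdTomato-GFP- replicate 2 (753 of 10503 genes) or tdTomato+GFP+ replicate 2 (742 of 9784 genes).

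With the replicate block, 17 members differed in these clusters, 4 higher and 13 lower, against 16.2% of genes (6.9% higher and 9.25% lower). Dnaja4 (-0.76 ± 0.13), Hspa1b (-0.69 ± 0.12, adjusted p = 0.0493, edgeR with the block), Dnajb1 (-0.59 ± 0.08) and Hsph1 (-0.51 ± 0.08) fell, followed by Dnajc15, Cct6a, Hsp90aa1, Hspd1, Hspe1, Hspa8 and Hsp90ab1, beside Dnajb6 and Dnajc3. Hspa1a, at 282, 589 and 698 CPM against 137, 372 and 546 CPM, was lower in every pair, with a log2 fold change of -0.72 and an adjusted p of 0.151 with the block (edgeR). Dnajc7 (0.24) and Dnajb13 (0.63) rose with the block, beside Hsp90b1 and Dnajc1. Hspa5, higher over all cells, was at 936, 971 and 857 CPM against 999, 979 and 918 CPM here, with an estimate of 0.02 that did not pass. Estimates without the block that passed in neither fit were -0.12 for Dnajb9, a J-domain partner of Hspa5, -0.14 for Dnaja1, -0.19 for Cct5, -0.03 for Cct2, 0.05 for Cct8, 0.16 for Bag1, -0.07 for Bag3 and -0.0013 for Hspa9.

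In cluster 0, 1 of 65 members differed between the gates, against 2.55% of 9064 genes. This was Dnajc15, a J-domain protein of the inner mitochondrial membrane, at 139, 137 and 149 CPM against 116, 91.1 and 76.3 CPM (log2 fold change -0.63 ± 0.12, adjusted p = 0.0066, edgeR's quasi-likelihood test), and it did not pass without tdTomato+GFP+ replicate 2. With the block, against 4% of genes, Hsp90aa1 (-0.41, adjusted p = 0.0112, edgeR) and Hspa1a (-0.42, adjusted p = 0.0399) fell too. Of the other members of main interest, the estimates without the block that did not pass ran from -0.30 for Hspa1b and -0.26 for Dnajb9 to 0.19 for Hsp90b1 and 0.20 for Cct2, with Dnajb1 at 0.02 and Hspa5 at -0.0081.

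In cluster 8, none of 54 members differed in edgeR's test, against 0.73% of 6574 genes. At an unadjusted p under 0.05 there were 2 members, Dnajb12 (-0.97) and Dnajc15 (-0.41), DESeq2 called 0, against 0.578% of genes, and edgeR with the block called 0, against 1.43% of genes. The estimate for Hspa1a was 0.07 (95% interval -0.25 to 0.39) and that for Hspa1b 0.11 (-0.66 to 0.88). Bag3 had 0.49, Hsp90b1 0.23, Hsp90aa1 0.21, Hspa8 0.08, Dnajb1 -0.04 and Hsph1 -0.28. The tdTomato+GFP+ gate brings 20, 160 and 122 cells to this cluster, which limits what could be seen. Whether the gate difference itself differs between clusters 8 and 0 was tested as an interaction: none of 63 members passed in edgeR, against 0.196% of 8660 genes, and 5 had an unadjusted p under 0.05. Among these, Hsp90aa1 had an interaction of 0.54 ± 0.13 (adjusted p = 0.0649, edgeR), Hspa1b of 0.45 (adjusted p = 0.276) and Hspa1a of 0.43 (adjusted p = 0.263). Without tdTomato+GFP+ replicate 1 or replicate 3, 2 members passed, against 15 of 8788 and 19 of 8543 genes.

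In cluster 5, which is mostly tdTomato-GFP-, none of 56 members passed in edgeR, against 3.71% of 6491 genes; 5 had an unadjusted p under 0.05 and DESeq2 called 0, against 3.47% of genes. Hspa5 was at 828, 839 and 933 CPM against 1462, 1191 and 906 CPM (log2 fold change 0.49 ± 0.15, adjusted p = 0.0941, edgeR), and with the block it passed (adjusted p = 0.0388), against 5.05% of genes. The tdTomato+GFP+ replicates brought 24, 80 and 58 cells to this cluster, and the 1462 CPM rests on the 24 cells of replicate 1. Without tdTomato+GFP+ replicate 1 the count was 3, against 421 of 7788 genes. Without replicate 3 of that gate it was 1, against 114 of 7712 genes. Hspa2 had an estimate of 1.21 ± 0.40 and an adjusted p of 0.118 (edgeR), Hsp90b1 of 0.31, Hspa1a of 0.72, Dnajb1 of 0.30 and Dnajb9 of -0.48, and none of these passed.

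Partner genes of the chaperones differed between the gates in both directions. Over all cells, 7 of 25 heat shock factors and co-chaperones rose in tdTomato+GFP+ in edgeR, where 13% of all genes rose and 13.4% fell, among them Fkbp5, a partner of HSP90 on hormone receptors (0.46 ± 0.08), Pfdn4 (0.38), St13 (0.30) and Pfdn1 (0.24). Their median log2 fold change was 0.01. Of 21 tested genes of the unfolded protein response, 5 rose and 2 fell. Ern1, the sensor IRE1, was at 136, 120 and 115 CPM against 50.6, 54.2 and 55.5 CPM (-1.22 ± 0.07, adjusted p = 2.7e-05, edgeR), and Eif2ak3, the sensor PERK, fell by 0.51. Manf (0.34), a secreted protein induced with Hspa5, and Pdia4 (0.33) rose. None of 10 mitochondrial partners passed in edgeR, 2 had an unadjusted p under 0.05, and DESeq2 called 0.

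Of 19 immediate early genes over all cells, 3 rose and 3 fell, against 26.4% of all genes called, with Nfkbia at 0.53, Fosb at 0.50, Btg2 at -0.50 and Ppp1r15a, a co-factor that reverses the translational arrest of stressed cells, at -0.41. With the block 7 rose and 6 fell, against 34.6% of genes. In clusters 1, 2 and 3, 1 rose and 6 fell, against 4.64% and 6.75% of genes, with Egr1 at -1.12 ± 0.12 (adjusted p = 0.00035, edgeR), Btg2 at -0.90 and Ier2 at -0.52, and Ern1 fell by 2.10. These are the clusters in which inducible chaperones fell with the block, and the part of the immediate early genes in that was not tested. In cluster 0, Ern1 fell by 0.79, and 3 immediate early genes fell, Btg2 (-0.43), Fos (-0.33) and Jund (-0.32), with 6 lower and 1 higher with the block, where 2.55% of genes and, with the block, 4% were called. In cluster 5, the co-chaperones Hspbp1 (1.33), an exchange factor of HSP70, and Fkbp5 (1.11) rose, where 3.71% of genes were called. That cluster held 24, 80 and 58 cells in the tdTomato+GFP+ replicates. In cluster 8 no gene of the 4 lists passed in edgeR. There, 3 of 24 co-chaperones, 0 of 8 mitochondrial genes, 1 of 19 genes of the unfolded protein response and 4 of 19 immediate early genes had an unadjusted p under 0.05, DESeq2 called 0 of each, and with the block Atf3 rose (0.58).

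Some members could not be read. Dnajb3, Cct6b, Dnajc28, Hspa1l and Hspa12a had under 100 UMIs in all, and 69 of 73 members passed the count filter of the test over all cells, 66 in clusters 1 to 3 and 54 in cluster 8. No test was made for the others.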

How the data were processed

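Single-cell RNA and T cell receptor libraries of 2 sorted gates, with 3 hashed replicates each, were analysed. The deposited table holds raw UMI counts per cell and gene, with the authors' gate, replicate and phenograph cluster; the tools named in the submitters' processing notes are Scanpy 1.7.2 and Cell Ranger, and the build is mm10 (GRCm38). Per the labels' protocols the kit was 3′ v3 or 5′ v2, without saying which. The table holds 23595 cells, of which 18874 have a replicate; 43.8% of UMIs lay in 3 hashtag features and were left out. Doublets were not called again: cells without a replicate were left out. The members and gene lists were chosen with earlier results of these data known.

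Counts were summed per replicate and cell selection and tested with edgeR 4.0.16 (quasi-likelihood, TMM, filterByExpr with a minimum count of 10, adjusted p under 0.05), with DESeq2 1.42.0 as an alternative; the code was first tested on simulated data. The replicate numbers pair the samples: gates shared 19, 23 and 33 clonotypes between replicates of the same number and 0 to 3 otherwise. Deviations from the gate means over all cells correlated at 0.26, 0.15 and 0.28 over all genes. In cluster 0 these values were 0.22, 0.11 and 0.13. In clusters 1, 2 and 3 they were 0.10, 0.018 and 0.15, and tdTomato-GFP- replicate 2 had 0.045 with tdTomato+GFP+ replicate 1. The fit without the replicate block was the planned one. Named with values were up to 8 members that rose and 8 that fell per comparison, the 8 highest and 4 lowest mean log2 ratios of clusters 8 and 0, a fixed list of 20 members, and up to 4 called genes per list; others named were chosen after their values were seen. P-values measure the spread between replicates of 1 lane per gate. Wilson intervals cover counting error only; intervals of fold changes come from the fits over replicates. Gene positions are from GENCODE M21 (GRCm38). Counts are over all members, and 1 member is not reported here by name.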

Additional observations from a re-analysis of the deposited data

Results flagged for a closer look

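No chaperone was flagged. Among the marker genes checked beside them, the gate difference (tdTomato+GFP+ over tdTomato-GFP-) differed between clusters 8 and 0 in edgeR's interaction test for 5 genes. The log2 interaction was -1.34 for Ikzf2 and -0.96 for Foxp3, both regulatory T cell genes, which in tdTomato-GFP- cells stood higher in cluster 8 than in cluster 0. Ikzf2 was at 170, 165 and 181 CPM in cluster 8 of tdTomato-GFP- and at 66.7, 34.2 and 35.3 CPM in cluster 8 of tdTomato+GFP+. The log2 interaction was -8.59 for Dcn, -7.66 for Col1a2 and -7.47 for Sparc, stromal genes at or near 0 in several replicates, so that these fitted values depend on the prior count and are no bounds. Dcn was at 479, 61.1 and 0 CPM in cluster 8 of tdTomato-GFP- and at 1215, 0 and 0 CPM in tdTomato+GFP+.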

How the results depend on the processing

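The number of members that differed between the gates depended on the fit. Over all cells 16 members passed without the replicate block, 28 with it, 1 with equal cells per cluster and 6 with 1 cell per clonotype. Without cluster 8 and with the block 27 passed, and without 1 replicate 6 to 13 did. The calls over all genes moved too: in that order they were 3153 of 11933, 4133 of 11933, 264 of 10676, 1554 of 10251 and 4129 of 11811. Without 1 replicate 2005 to 3003 genes were called. In clusters 1, 2 and 3 the 4 members became 17 with the block, 14 with equal cells and the block, and 1 to 6 without 1 replicate. The genes called there went from 1135 of 9966 to 1610 of 9966, 1042 of 8358 and, without 1 replicate, 577 to 1008. In cluster 0 the 1 member became 3 with the block and 0 to 1 without 1 replicate, while 231 genes became 363 and 93 to 415. In cluster 5 the count of 0 became 2 without the count filter, 1 with the block and 0 to 3 without 1 replicate. There 241 of 6491 genes became 495 of 14221, 328 of 6491 and, without 1 replicate, 97 to 421. For the interaction the count of 0 became 0 to 2 without 1 replicate, and 17 genes became 13 to 19. In cluster 8 it was 0 members in each setting, with 15 to 154 genes called. The combined settings with the block, the unscaled library totals and the fit without cells that have no cluster were added after seeing the data. Bag3 over all cells changed direction with equal cells (0.028; with the block 0.02) and with 1 cell per clonotype (0.14; with the block 0.15). In clusters 1, 2 and 3, the estimates without 1 replicate ran from -0.24 to 0.031 for Hsp90ab1, from -0.39 to 0.0205 for Hspa8 and from -0.35 to 0.0048 for Hspe1, the change of direction coming without tdTomato+GFP+ replicate 1. Of the other single-gene results over all cells, 392 kept direction and side of the threshold, 95 no longer passed and 41 newly passed. The cause was not tested. Members over 1.5-fold apart in the means of clusters 8 and 0 numbered 12, and 12 to 13 without 1 replicate. That count comes from ratios without a test, in clusters formed from the same expression, and cannot be ranked beside the gate counts. The depth of cluster 8, with 20 cells in tdTomato+GFP+ replicate 1, limits what could be seen between gates there.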

Other observations

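Cells that belong to no comparison gave these values. The 2217 cells of tdTomato-GFP- without a replicate had a median of 7103 UMIs, 581 CPM of Hspa1a and 774 CPM of Hspa1b, and the 2504 of tdTomato+GFP+ had a median of 7675.5 UMIs, 464 and 660.5 CPM. All members together took 15189 and 15331 CPM in them, against 14432 and 15081 CPM in the cells with a replicate. The 216 cells with a replicate and no cluster had 11369 CPM of members, with Hspa1a at 306 CPM and Hspa1b at 452 CPM.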
